A study of Homo sapiens with 8 samples.

Results

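KLHL23 was knocked down in Huh7, an established human hepatoma cell line, and 2 arrays of the knockdown were compared with 2 control arrays. These 4 of the 8 arrays of the study were chosen by their labels, Huh7-shKLHL23 and Huh7-shLuc, and the other 4 repeat the comparison in the hepatoma line Hep-3B. Lentivirus was added at a multiplicity of infection of 2 to cells grown with 10% fetal bovine serum, and puromycin selection began after 48 hours, per the labels' protocols. It delivered either a short hairpin RNA (shRNA) that directs the destruction of KLHL23 transcripts, or a hairpin against luciferase, which human cells lack. Both groups were therefore transduced and selected. The array numbers are 1 and 3 in every group. The labels name a single knockdown hairpin, so loss of KLHL23 and any effect of the hairpin on other transcripts cannot be told apart. Nothing says that the arrays came from separate cultures, and p-values here then reflect the spread of these particular samples alone, possibly a technical one.

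KLHL23 belongs to the Kelch-like family, whose members carry a BTB domain and Kelch repeats, and many of which bring proteins to the cullin 3 ubiquitin ligase for degradation. The series' title places it in the epithelial-mesenchymal transition (EMT), in which epithelial cells lose their junctions and take on a motile form marked by vimentin and N-cadherin. Huh7 cells keep much of the hepatocyte's programme: they secrete plasma proteins and carry out parts of lipid, amino acid and drug metabolism. Transcript levels are given as log2 values made by RMA (robust multi-array average). A difference of 1 on this scale is a 2-fold change, and RMA shrinks the changes of dim genes.

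Hepatocyte transcripts were abundant in all 4 arrays. Albumin (ALB) stood at 13.53 and 13.47 in controls against 13.53 and 13.55 after knockdown, and APOA1, APOB, SERPINA1 and TF, all secreted by hepatocytes, lay between 11.60 and 13.75. The fetal liver protein AFP was at 12.38 and 12.39 in controls against 11.41 and 12.40 after knockdown, so it was low in knockdown replicate 1 alone. GPC3, a surface protein of many hepatomas, was dim, at 3.35 to 3.93. No stellate cell and fibroblast (10), endothelial (10) or macrophage and blood (9) marker was called, and the mean level of these lists was 4.36 to 4.45, 3.45 to 3.59 and 5.35 to 5.42. LYZ and CD14 of the last list were well above that mean, at 12.07 to 12.38 and 6.30 to 6.75. Of 9 cholangiocyte and progenitor markers 4 were called higher and 1 lower, and their mean level moved from 6.78 and 6.74 to 7.22 and 7.29. In bulk RNA a change in the number of cells of a kind and in the RNA per cell cannot be told apart. Replicates correlated at 0.998 in control and 0.995 in knockdown arrays, and 62 genes differed by over 1 between the knockdown arrays against 1 between the control arrays. The 3' minus 5' difference of ACTB, a sign of RNA integrity, was 0.873 and 0.833 for controls against 0.525 and 0.546 after knockdown, and its part in the results was not tested. That of GAPDH overlapped between the groups, at 0.132 and 0.0887 for controls against 0.148 and 0.112 after knockdown.

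KLHL23 transcript was at 7.89 and 7.87 in controls against 5.78 and 5.88 after knockdown (probe set 241682_at), and the groups did not overlap. The difference was -2.05 (SE 0.27, n = 2 per group, adjusted p = 0.00363), or 24.2% of the control level. A further probe set shared with the readthrough locus PHOSPHO2-KLHL23 went from 8.94 and 9.01 to 6.34 and 6.80. The other 2 probe sets that pair with KLHL23 and its readthrough gene are dim, from 1.69 to 3.44, and were at 0.074 (adjusted p = 0.824) and 0.32 (adjusted p = 0.233). Across 19775 genes, limma called 2666 changed at a Benjamini-Hochberg adjusted p under 0.05, or 13.5% of all genes tested. The calls were 1137 higher (5.75%) and 1529 lower (7.73%), and with the arrays centred on ribosomal protein genes 1387 of 2574 calls were higher. At least 2-fold, 105 were higher and 161 lower. The 4 values of a gene fell into separate groups for every called gene, and for 10625 (53.7%) of all genes. The count became 558 without control replicate 1, 545 without control replicate 3 and 1448 without knockdown replicate 1. Of the main calls 550, 537 and 1224 were among them, all in the same direction.

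**Figure D1:**
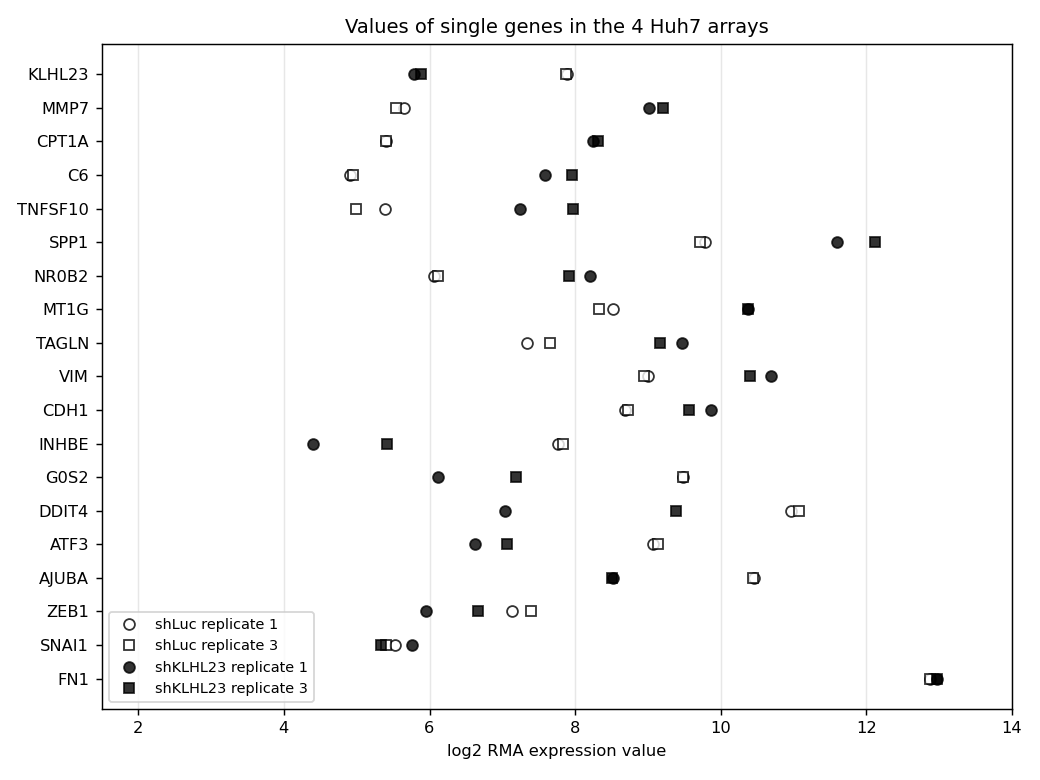
Log2 RMA expression value (x axis) of 19 genes in each of the 4 Huh7 arrays, open symbols for control and filled for knockdown, circles for replicate 1 and squares for replicate 3. KLHL23 lay between 5.78 and 5.88 in the knockdown arrays against 7.87 and 7.89 in the controls, DDIT4 differed widely between the knockdown arrays (7.03 and 9.38), and SNAI1 and FN1 have overlapping or nearby values.

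The largest rise was that of MMP7, a secreted matrix protease of epithelial cells, which was at 5.65 and 5.54 in controls against 9.01 and 9.21 after knockdown (3.52, SE 0.16, adjusted p = 7.26e-05), an 11.5-fold rise. CPT1A, the enzyme that loads fatty acids onto carnitine at the mitochondrial surface, went from 5.40 and 5.40 to 8.25 and 8.32 (2.88, SE 0.11, adjusted p = 2.40e-05). C6, a protein of the complement membrane attack complex, went from 4.91 and 4.95 to 7.58 and 7.96 (2.84, SE 0.14, adjusted p = 9.30e-05). In these 3 genes the arrays of a group lay close together. TNFSF10, the death ligand TRAIL, went from 5.39 and 4.99 to 7.24 and 7.97 (2.41, SE 0.26, adjusted p = 0.00186), PLA1A, a secreted phospholipase, from 5.54 and 5.58 to 7.67 and 7.96, and DEFB1, an epithelial defensin, from 5.72 and 5.93 to 8.21 and 7.86. SPP1, the secreted phosphoprotein osteopontin, rose by 2.10 and PAPSS2, which makes the sulfate donor for sulfation, by 1.91. MAF, a basic leucine zipper transcription factor, rose by 1.79, LEAP2, a liver peptide that blocks the ghrelin receptor, by 1.66, and HPN, a surface serine protease of hepatocytes, by 1.6. The largest fall was that of INHBE, the activin subunit beta E secreted by the liver, which was at 7.77 and 7.83 in controls against 4.40 and 5.42 after knockdown (-2.89, SE 0.47, adjusted p = 0.00705), 13.5% of control. G0S2, an inhibitor of the triglyceride lipase ATGL, went from 9.48 and 9.48 to 6.11 and 7.19 (-2.83, SE 0.28, adjusted p = 0.00125). Both were lower in knockdown replicate 1 than in replicate 3. ZFAND1, a zinc finger protein of stress granule clearance, went from 9.12 and 8.92 to 6.67 and 7.24, DLX2, a homeobox factor, from 6.0 and 5.78 to 4.14 and 3.71, and AKNA, an AT-hook protein, from 7.90 and 8.04 to 5.95 and 6.22. KAT2B, a histone acetyltransferase, fell by 1.69 and ARRDC4, an arrestin-like gene induced by glucose, by 1.76. INHBE (-2.92 to -2.86) did not pass without either control array. Leaving out an array leaves 1 in its group, so the spread is then estimated from the other groups. Here and below, the bracketed values are the differences in those fits. A call can be lost there although the difference is nearly unchanged.

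In the list of integrated stress response genes 68.5% of members were called, against 13.5% of all genes, and every call was a fall. When amino acids run short or the endoplasmic reticulum is strained, kinases of eIF2alpha slow translation and raise the factor ATF4, which switches on genes for amino acid synthesis, uptake and tRNA charging. Of 54 measured genes of this list 0 rose and 37 fell, against 5.75% and 7.73% of all genes, and at an unadjusted p under 0.05 3 were higher, with a median of -0.75 against -0.00032 over all genes tested. Of 11 aminoacyl-tRNA synthetases, which attach amino acids to tRNA, 9 fell, and of 11 amino acid and one-carbon enzymes 8. Falls were also called in 5 of 8 amino acid transporters, 5 of 8 transcription factors and 6 of 7 feedback genes and inhibitors. Of 5 secreted and surface proteins 3 fell, and of 4 kinases and translation factors 1 fell, with a median of 0.064. Among the factors, ATF3 was at 9.07 and 9.14 in controls against 6.62 and 7.07 after knockdown (-2.25, SE 0.56, adjusted p = 0.0319) and JDP2 at 6.48 and 6.51 in controls against 4.35 and 5.21 after knockdown (-1.72, SE 0.26, adjusted p = 0.00591). DDIT3, the proapoptotic factor CHOP, fell by 1.18 and CEBPB by 1.08. ATF4 itself was at 11.80 and 11.86 in controls against 10.69 and 11.58 after knockdown, uneven between the knockdown arrays, and did not pass (-0.69, SE 0.26, adjusted p = 0.116). Among the enzymes, CTH, which makes cysteine, went from 10.14 and 10.11 to 8.34 and 8.27 (-1.82, SE 0.45, adjusted p = 0.0301), ASNS, which makes asparagine, from 11.40 and 11.50 to 10.10 and 10.14 (-1.33, SE 0.37, adjusted p = 0.0491), MTHFD2, of the mitochondrial folate cycle, from 11.48 and 11.43 to 9.88 and 10.31 and PHGDH, the first enzyme of serine synthesis, from 9.75 and 9.85 to 8.49 and 9.01. All 4 enzymes had separate groups. Among the transporters, SLC7A1, which takes up arginine and lysine, fell by 1.47 and SLC3A2, the heavy chain of several amino acid transporters, by 1.08. The cystine transporter SLC7A11 was at 9.69 and 9.73 in controls against 7.16 and 8.63 after knockdown and did not pass (-1.81, SE 0.53, adjusted p = 0.055). PHGDH (-1.0) lost the call without control replicate 3. CEBPB (-1.12 to -0.87), DDIT3 (-1.2 to -0.68) and MTHFD2 (-1.38 to -1.14) were not called without either control array or knockdown replicate 1. ATF3 (-2.48 to -2.03) and CTH (-1.85 to -1.79) missed the threshold without either control array or either knockdown array. ASNS (-1.38 to -1.28) did not pass without either control array, either knockdown array or either Hep-3B control array. The stress response counts became 5 lower without control replicate 1, 4 lower without control replicate 3, 15 lower without knockdown replicate 1 and 2 higher without knockdown replicate 3.

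The feedback genes and inhibitors of the list had a median of -1.40, and several were uneven between the knockdown arrays. DDIT4, an inhibitor of mTORC1, was at 10.97 and 11.08 in controls against 7.03 and 9.38 after knockdown (-2.82, SE 0.74, adjusted p = 0.0381), CHAC1, which degrades glutathione, at 7.24 and 7.49 in controls against 5.03 and 6.31 after knockdown (-1.70, SE 0.34, adjusted p = 0.0145), and SESN2, a leucine sensor that restrains mTORC1, at 8.07 and 8.18 in controls against 6.31 and 7.14 after knockdown. TRIB3, a pseudokinase that binds ATF4, fell by 1.51, and STC2, a secreted glycoprotein, fell by 1.51. In 30 of the 37 called genes of the list knockdown replicate 1 was the lower of the pair, and the list's median was -0.82 in replicate 1 and -0.67 in replicate 3. Over all 1529 genes called lower, replicate 1 was the lower in 972. In the line Hep-3B the list's median was -0.58 with limma calling 0 members there and 0 in the test of the difference between the lines, at 137 and 249 calls over all genes. CHAC1 (-1.82 to -1.57) and SESN2 (-1.46 to -1.34) lost the call without either control array. TRIB3 (-1.53 to -1.13) was not called without either control array or knockdown replicate 1. DDIT4 (-2.88 to -1.65) and STC2 (-1.51 to -0.83) missed the threshold without either control array, knockdown replicate 1 or either Hep-3B control array.

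**Figure D2:**
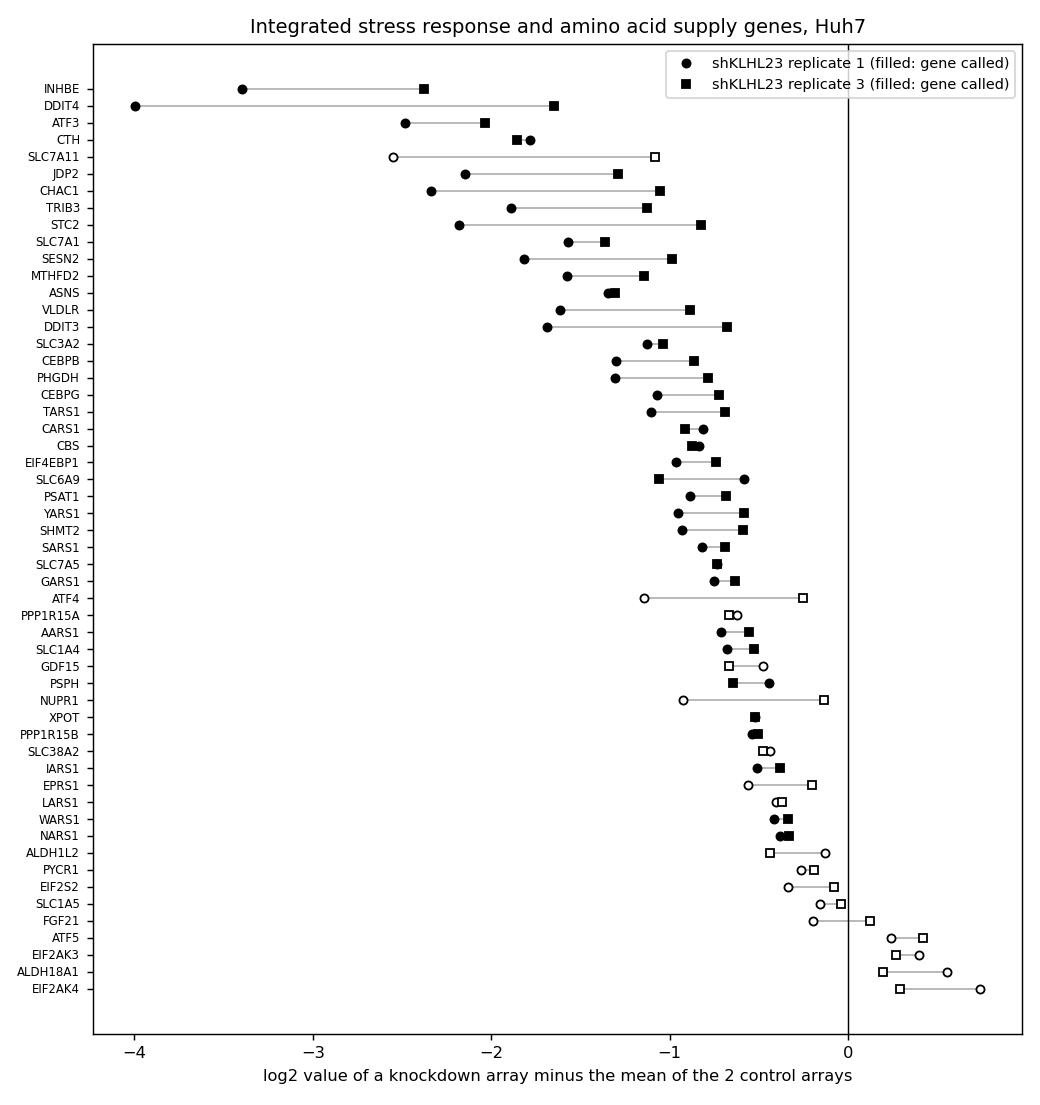
Each knockdown array minus the mean of the 2 control arrays (x axis, log2) for the 54 measured integrated stress response and amino acid supply genes, circles for knockdown replicate 1 and squares for replicate 3, filled where the gene was called. Filled symbols, 37 genes, all lie left of 0, and the lines joining the 2 arrays are longest for DDIT4, SLC7A11, STC2 and CHAC1.

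The C/EBP-ATF response element TGATGCAA, bound by ATF4 paired with a C/EBP factor, was searched on both strands (as TGATGCAA or TTGCATCA) in RefSeq promoters of build GRCh38.p14, from 250 bases before to 50 after a gene's start. It occurred in 0.722% of the 15384 promoters of tested genes. It occurred in 20 of 1241 promoters of genes called lower (1.61%), in 1 of 956 of genes called higher (0.105%) and in 8 of 43 of the stress response list (18.6%), 7 of them genes that fell. Those 7 are also among the 20, so the shares are not separate observations. The list was drawn up as genes of a response that ATF4 drives, so a high share of this element was to be had from its choice. The windows around these 7 matches are shown since they hold the matches found in 5 of the 9 synthetases that fell and in CHAC1 and PPP1R15B, with the matched letters in capitals, 5′ to 3′ on the gene's strand.
CHAC1: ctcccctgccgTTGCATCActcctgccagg
TARS1: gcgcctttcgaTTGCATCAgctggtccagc
CARS1: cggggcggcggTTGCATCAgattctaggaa
AARS1: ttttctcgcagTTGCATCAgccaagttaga
PPP1R15B: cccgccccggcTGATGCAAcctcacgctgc
IARS1: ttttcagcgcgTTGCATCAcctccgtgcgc
NARS1: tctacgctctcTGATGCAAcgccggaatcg
The windows are CHAC1 at chr15:40953251-40953280 (plus strand), TARS1 at chr5:33440956-33440985 (plus strand), CARS1 at chr11:3057407-3057436 (minus strand), AARS1 at chr16:70289675-70289704 (minus strand), PPP1R15B at chr1:204412026-204412055 (minus strand), IARS1 at chr9:92293692-92293721 (minus strand) and NARS1 at chr18:57621804-57621833 (minus strand). The match begins at base -209 from the start of CHAC1, -187 of AARS1, -227 of PPP1R15B, -13 of IARS1, -2 of CARS1, +3 of TARS1 and +15 of NARS1. TARS1, the threonine synthetase, went from 10.45 and 10.45 to 9.35 and 9.76 (-0.90, SE 0.16, adjusted p = 0.0096), CARS1, for cysteine, from 10.63 and 10.63 to 9.82 and 9.72 and AARS1, for alanine, from 11.39 and 11.46 to 10.71 and 10.87. PPP1R15B, a phosphatase subunit that reverses the phosphorylation of eIF2alpha, fell by 0.52, IARS1, for isoleucine, by 0.45 and NARS1, for asparagine, by 0.35. The cyclic AMP response element TGACGTCA, which is its own reverse complement, occurred in 2.67% of all promoters, 4.67% of those of genes called lower and 2.41% of those of genes called higher. The HNF4 site CAAAGTCCA (or TGGACTTTG) occurred in 0.325%, 0.0806% and 0.732%. Of 1241 and 956 promoters the last 2 shares are only a few matches, so their contrast is imprecise. An AP-1 site, an E-box and the core of the sterol regulatory element were also searched, and their shares are not given here. A match is a description of the letters and not a bound site. AARS1 (-0.67 to -0.60), CARS1 (-0.86) and TARS1 (-0.90 to -0.89) did not pass without either control array. IARS1 (-0.45 to -0.38) lost the call without either control array or knockdown replicate 1. NARS1 (-0.36 to -0.33) was not called without either control array, knockdown replicate 1 or either Hep-3B control array. PPP1R15B (-0.53 to -0.51) missed the threshold without either control array, either knockdown array or either Hep-3B control array.

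Of 39 chaperones, folding enzymes and degradation genes of the endoplasmic reticulum 2 rose and 2 fell, with a median of 0.14. The share called, 10.3%, was near the 13.5% over all genes. ERN1, the sensor IRE1alpha of unfolded proteins, went from 8.63 and 8.81 to 7.08 and 7.07 (-1.65, SE 0.17, adjusted p = 0.00173), and SEC24D, a coat protein of vesicles that leave the endoplasmic reticulum, went from 6.94 and 6.87 to 8.23 and 7.68 (1.05, SE 0.18, adjusted p = 0.00849). HERPUD1, of the degradation complex, fell on its brightest probe set (-0.70) but was at 0.29 and not called without probe sets prone to cross-hybridise. SEC61B, of the protein channel, rose by 0.51 and was at -0.056, not called, as the mean of its probe sets. HERPUD1 (-0.70 to -0.69), SEC24D (1.01 to 1.08) and SEC61B (0.49 to 0.52) did not pass without either control array.

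Genes of fat burning and fat storage changed in both directions. Fatty acid oxidation draws acyl groups into mitochondria, and PPARA drives its genes in liver. Of 37 genes of that list 6 rose and 3 fell (24.3% called against 13.5% of all genes, median -0.01). Besides CPT1A, CREB3L3, a liver factor that works with PPARA, was at 4.41 and 4.82 in controls against 6.25 and 5.68 after knockdown (1.35, SE 0.20, adjusted p = 0.00487) and VNN1, a pantetheinase and PPARA target, at 3.38 and 3.65 in controls against 4.25 and 5.03 after knockdown (1.12, SE 0.26, adjusted p = 0.0263). TXNIP, the glucose-induced inhibitor of thioredoxin, went from 10.43 and 10.46 to 8.72 and 9.38 (-1.40, SE 0.38, adjusted p = 0.0461), close to the threshold. Of 35 genes of fatty acid synthesis and lipid droplets 2 rose and 10 fell (34.3% called, median 0.078). ANGPTL8, a secreted regulator of lipoprotein lipase, went from 10.90 and 10.88 to 8.31 and 9.53 (-1.97, SE 0.36, adjusted p = 0.0114), and MTTP, which loads lipid onto apolipoprotein B, from 8.67 and 8.77 to 7.49 and 7.85 (-1.05, SE 0.14, adjusted p = 0.00363). PLIN3, a coat protein of lipid droplets, went from 7.70 and 7.66 to 8.93 and 8.72 (1.14, SE 0.11, adjusted p = 0.00108). SREBF1, the factor that drives fatty acid synthesis genes, fell by 0.37. Of 31 sterol synthesis and uptake genes limma called 0, against 4 higher and 2 lower at an unadjusted p under 0.05, with a median of 0.17 in Huh7 and 0.57 in Hep-3B, where 7 were called higher. Under the alternatives limma called at most 1 sterol gene higher, with ribosomal centring or above the median level, and at most 1 lower, without knockdown replicate 3. Among the list's members IDI1, of the mevalonate pathway, was at 8.90 and 8.98 in controls against 9.18 and 9.65 after knockdown (0.47, SE 0.20, adjusted p = 0.177), and STARD4, a sterol carrier, at 6.84 and 6.87 in controls against 5.92 and 6.64 after knockdown (-0.58, SE 0.21, adjusted p = 0.113). Of 25 bile acid genes 3 rose and 2 fell (20% called against 13.5% of all genes). NR0B2, the receptor SHP that represses bile acid synthesis, went from 6.06 and 6.12 to 8.21 and 7.92 (1.97, SE 0.11, adjusted p = 0.000255), KLB, the coreceptor of FGF19, rose by 0.44, FGF19 itself fell by 0.96 and SLC51B, of the basolateral bile acid exporter, by 0.88. ANGPTL8 (-1.98 to -1.96) lost the call without either control array. VNN1 (0.73 to 1.26) was not called without either control array or knockdown replicate 3. KLB (0.38 to 0.50) and SREBF1 (-0.38 to -0.31) missed the threshold without either control array, knockdown replicate 1 or either Hep-3B control array. TXNIP (-1.73 to -1.06) did not pass without either control array, either knockdown array or either Hep-3B control array. The oxidation counts became 2 higher and 0 lower without either control array, 3 higher and 1 lower without knockdown replicate 1 and 2 higher without knockdown replicate 3. The storage counts became 1 higher and 3 lower without either control array, 1 higher and 4 lower without knockdown replicate 1 and 4 higher without knockdown replicate 3. The bile acid counts became 1 higher without either control array or knockdown replicate 1.

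Among complement, coagulation and plasma carrier genes more were called higher than lower. Of 47 complement and coagulation genes 10 rose and 5 fell (31.9% called against 13.5% of all genes, median 0.15). The complement genes held 6 of 23 higher and 1 lower, and those of coagulation and its inhibitors 4 of 24 higher and 4 lower. Beside C6, C7, the next protein of the membrane attack complex, was at 5.17 and 5.09 in controls against 6.91 and 6.48 after knockdown (1.56, SE 0.13, adjusted p = 0.000813). C4BPA and C4BPB, the chains of the C4b-binding protein that restrains complement, went from 9.51 and 9.43 to 10.40 and 10.68 and from 7.95 and 7.99 to 9.29 and 9.36 (1.07 and 1.35). Prothrombin, F2, fell by 0.73. Of 37 plasma carriers, apolipoproteins and acute phase proteins 6 rose and 1 fell (18.9% called, near the 13.5% of all genes, median 0.12). SERPINA7, the thyroxine-binding globulin, went from 7.64 and 7.44 to 8.86 and 9.10 (1.45, SE 0.11, adjusted p = 0.000574), SERPINA6, the cortisol carrier, from 9.77 and 9.81 to 10.90 and 10.69 (1.0, SE 0.15, adjusted p = 0.00492) and TTR, transthyretin, from 7.78 and 8.02 to 8.97 and 9.29 (1.23, SE 0.18, adjusted p = 0.00524). APOE, of remnant lipoproteins, rose by 0.78. HAMP, the iron hormone hepcidin, was the list's only fall, at 8.63 and 8.64 in controls against 7.19 and 7.79 after knockdown (-1.14, SE 0.19, adjusted p = 0.00744). Complement and carrier medians were 0.097 and -0.0079 in knockdown replicate 1 against 0.33 and 0.19 in replicate 3, so the 2 arrays gave unlike values. TTR (1.11) lost the call without control replicate 1. APOE (0.68 to 0.87), F2 (-0.75 to -0.71) and HAMP (-1.15 to -1.14) were not called without either control array. The complement and coagulation counts became 6 higher and 0 lower without either control array and 1 lower without knockdown replicate 1. The carrier counts became 2 higher and 0 lower without control replicate 1, 3 higher and 0 lower without control replicate 3 and 6 lower without knockdown replicate 3.

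Of 53 cytochrome P450, conjugation and alcohol dehydrogenase genes 10 rose and 4 fell (26.4% called against 13.5% of all genes, median 0.12). CYP3A5, a drug-oxidising P450, went from 4.46 and 4.54 to 6.24 and 5.93 (1.58, SE 0.18, adjusted p = 0.00219) and its neighbour in the family CYP3A4 rose by 1.0. SULT1C2, a sulfotransferase, was at 7.34 and 7.48 in controls against 8.40 and 8.69 after knockdown (1.13, SE 0.22, adjusted p = 0.0126). On their brightest probe sets the alcohol dehydrogenase ADH4 went from 8.49 and 8.73 to 6.93 and 7.53 (-1.38, SE 0.23, adjusted p = 0.00736). ADH1B went from 4.12 and 4.21 to 6.13 and 6.52 (2.16, SE 0.18, adjusted p = 0.000636). Both probe sets are of a type that can also bind related transcripts, which for ADH1B are near-identical. Without such probe sets ADH1B was at -0.14 and not called, and ADH4 has no value, so their contrast is uncertain. Of 48 urea cycle and amino acid breakdown genes 3 rose and 7 fell (20.8% called, median -0.061). CTH and CBS, among these 7 falls, also belong to the stress response list. CPS1, the first enzyme of the urea cycle, was at 8.43 and 8.53 in controls against 6.75 and 7.13 after knockdown (-1.54, SE 0.13, adjusted p = 0.000685), and CBS, which begins cysteine synthesis from homocysteine, at 9.48 and 9.68 in controls against 8.75 and 8.71 after knockdown. ALDH4A1, of proline breakdown, rose by 0.60. Of 33 liver transcription factors and nuclear receptors 2 rose, NR0B2 and MAF, and 6 fell (24.2% called). Among the falls, AHR, the receptor for aromatic compounds, went from 9.30 and 9.18 to 8.67 and 8.47 (-0.67, SE 0.11, adjusted p = 0.00683). AHR (-0.61) missed the threshold without control replicate 1. ADH4 (-1.26) did not pass without control replicate 3. ALDH4A1 (0.52 to 0.69) lost the call without either control array. SULT1C2 (0.99 to 1.2) was not called without either control array or knockdown replicate 3. CBS (-0.95 to -0.75) missed the threshold without either control array or either knockdown array. The P450 and conjugation counts became 4 higher and 1 lower without control replicate 1, 5 higher and 0 lower without control replicate 3, 1 lower without knockdown replicate 1 and 6 higher without knockdown replicate 3. The urea cycle counts became 0 higher and 1 lower without either control array and 4 lower without knockdown replicate 1. The liver factor counts became 0 lower without control replicate 1, 1 lower without control replicate 3 and 3 lower without knockdown replicate 1.

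All 7 measured metallothioneins, small proteins that bind zinc and copper, rose, by 1.51 to 1.95. MT1G went from 8.52 and 8.33 to 10.37 and 10.38 (1.95, SE 0.17, adjusted p = 0.000822), MT1E from 9.41 and 9.50 to 11.17 and 11.24 (1.75, SE 0.14, adjusted p = 0.00066), MT1X from 9.25 and 9.42 to 11.02 and 11.01 and MT2A from 10.02 and 9.93 to 11.52 and 11.47. Their sequences are near-identical, so the probe sets may count a shared signal, and MT1G was at 0.21 and not called without the probe sets prone to cross-hybridise. Of 8 zinc transporter genes and their sensor, 1 rose and SLC30A10, a manganese exporter of the zinc transporter family, fell (-1.48). Of 12 iron genes 2 rose and 3 fell: SLC40A1, the iron exporter ferroportin that hepcidin degrades, went from 7.18 and 6.97 to 8.95 and 8.73 (1.76, SE 0.12, adjusted p = 0.000453), while HAMP itself fell. Of 37 targets of NRF2, the factor that KEAP1 and cullin 3 keep in check, and glutathione genes 12 rose and 4 fell (median 0.22). The share called was 43.2%, against 13.5% of all genes. AKR1B10, an aldo-keto reductase, went from 5.42 and 5.24 to 6.17 and 6.98 (1.24, SE 0.23, adjusted p = 0.0114), UGDH, which makes glucuronate, from 7.97 and 7.87 to 8.75 and 8.96 (0.93, SE 0.10, adjusted p = 0.00194) and GPX2, a glutathione peroxidase, from 11.87 and 11.92 to 12.74 and 12.55 (0.75, SE 0.10, adjusted p = 0.00368). NFE2L2, which encodes NRF2, fell by 0.39 and KEAP1 rose by 0.41. AKR1B10 (1.15 to 1.34) did not pass without either control array. SLC30A10 (-1.58 to -0.98) lost the call without either control array or knockdown replicate 1. KEAP1 (0.34 to 0.43) was not called without either control array, knockdown replicate 1 or either Hep-3B control array. NFE2L2 (-0.42 to -0.36) missed the threshold without either control array, either knockdown array or either Hep-3B control array. The metallothionein, zinc and iron counts became 0 lower without either control array. The NRF2 counts became 2 higher and 0 lower without control replicate 1, 4 higher and 0 lower without control replicate 3 and 2 lower without knockdown replicate 1.

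Of 44 targets of hypoxia-inducible factor and glycolysis genes 6 rose and 0 fell, with 5 lower at an unadjusted p under 0.05 (median 0.062, against -0.28 in Hep-3B). The share called, 13.6%, was that of all genes (13.5%). NDRG1, a stress-responsive cytoplasmic protein, was at 7.58 and 7.66 in controls against 9.51 and 9.21 after knockdown (1.75, SE 0.24, adjusted p = 0.00418), and PKM, pyruvate kinase, at 9.86 and 10.04 in controls against 10.87 and 10.75 after knockdown (0.86, SE 0.11, adjusted p = 0.00296). P4HA2, of collagen prolyl hydroxylase, rose by 0.71 and ALDOC, an aldolase, by 0.53. VEGFA, the vascular growth factor, was at 10.91 and 10.89 in controls against 9.39 and 9.70 after knockdown and did not pass (-1.36, SE 0.42, adjusted p = 0.0673). Of 30 gluconeogenesis, glycogen and insulin signalling genes 3 rose and 5 fell (26.7% called, median 0.013). PCK1 and PC, which feed carbon into gluconeogenesis, went from 3.76 and 4.0 to 5.12 and 5.12 and from 9.25 and 9.27 to 10.29 and 10.06 (1.24 and 0.92). TSC22D3, a gene induced by glucocorticoids, fell by 1.81 and the kinase SIK1 by 1.2, and neither was called without the probe sets prone to cross-hybridise. ALDOC (0.52 to 0.54) did not pass without either control array. TSC22D3 (-1.83 to -1.79) lost the call without either control array or either knockdown array. The hypoxia and glycolysis counts became 3 higher without either control array and 1 lower without knockdown replicate 3. The gluconeogenesis counts became 1 lower without either control array and 2 lower without knockdown replicate 1.

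Among Wnt and Notch genes more were called lower than higher. Wnt proteins bind Frizzled receptors and stabilise beta-catenin, which induces targets and feedback inhibitors. Of 42 Wnt pathway genes 2 rose and 15 fell (median -0.24 in Huh7 and 0.00067 in Hep-3B). The share called was 40.5%, against 13.5% of all genes. Of the receptors, FZD7 went from 6.94 and 7.02 to 6.37 and 6.03 (-0.78, SE 0.16, adjusted p = 0.0165), 3 of 5 measured Frizzled genes fell, and the coreceptor LRP5 rose by 0.72. Of the inhibitors, NKD1 was at 9.87 and 9.84 in controls against 8.75 and 8.93 after knockdown (-1.02, SE 0.094, adjusted p = 0.000956) and WIF1, a secreted Wnt-binding protein, at 4.51 and 4.31 in controls against 3.49 and 3.69 after knockdown (-0.82, SE 0.11, adjusted p = 0.00401). Of the nuclear factor and targets, LEF1 fell by 0.62, AXIN2 by 0.55, LGR5 by 0.61 and MYC by 0.83. Of 37 Notch genes 0 rose and 7 fell, with 3 higher at an unadjusted p under 0.05 (median -0.052). Their share called, 18.9%, was near the 13.5% over all genes. ADAM17, a protease that sheds Notch and its ligands, went from 8.56 and 8.56 to 7.59 and 7.54 (-0.99, SE 0.092, adjusted p = 0.000968) and HEY1, a Notch target factor, from 9.24 and 9.23 to 8.24 and 8.56 (-0.84, SE 0.15, adjusted p = 0.00965). DLK1, a fetal liver protein related to Notch ligands, went from 8.30 and 8.47 to 6.19 and 6.62 (-1.98, SE 0.14, adjusted p = 0.000453), but was at 0.14 and not called without the probe sets prone to cross-hybridise. LRP5 (0.64) was not called without control replicate 1. AXIN2 (-0.56 to -0.54) missed the threshold without either control array. HEY1 (-0.84 to -0.68), LEF1 (-0.67 to -0.44) and MYC (-0.84 to -0.79) did not pass without either control array or knockdown replicate 1. FZD7 (-0.82 to -0.61) lost the call without either control array or knockdown replicate 3. LGR5 (-0.64 to -0.58) was not called without either control array or either knockdown array. The Wnt counts became 0 higher and 2 lower without control replicate 1, 3 lower without control replicate 3 and 9 lower without knockdown replicate 1. The Notch counts became 2 lower without either control array, 3 lower without knockdown replicate 1 and 1 higher without knockdown replicate 3.

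Of 42 TGF-beta, activin and BMP genes 2 rose and 11 fell (31% called against 13.5% of all genes, median -0.10). INHBE, which also belongs to the stress response list, led the falls, and ID4, an inhibitor of basic helix-loop-helix factors and BMP target, was at 8.48 and 8.54 in controls against 7.60 and 7.08 after knockdown (-1.17, SE 0.21, adjusted p = 0.00998). SKIL, a repressor of SMAD factors, fell by 0.78 and TGFBR3, the coreceptor betaglycan, by 0.66. Of 30 Hippo pathway genes 2 rose and 6 fell (26.7% called, median -0.20). AJUBA, a LIM protein that binds LATS kinases, went from 10.45 and 10.44 to 8.52 and 8.51 (-1.93, SE 0.17, adjusted p = 0.000813), YAP1, the pathway's coactivator, from 10.61 and 10.55 to 9.48 and 9.70 (-0.99, SE 0.10, adjusted p = 0.00159) and TEAD4, its DNA-binding partner, from 8.61 and 8.73 to 7.65 and 8.02 (-0.83, SE 0.14, adjusted p = 0.00791). In all 3 genes the arrays of a group lay closer to each other than to those of the other group. TEAD4 (-0.78) missed the threshold without control replicate 3. ID4 (-1.2 to -1.14) did not pass without either control array. SKIL (-0.79 to -0.54) lost the call without either control array, knockdown replicate 1 or either Hep-3B control array. TGFBR3 (-0.67 to -0.65) was not called without either control array, either knockdown array or either Hep-3B control array. The TGF-beta counts became 0 higher and 1 lower without control replicate 1, 0 higher and 0 lower without control replicate 3 and 1 higher without knockdown replicate 3. The Hippo counts became 0 higher and 3 lower without control replicate 1 and 0 higher and 2 lower without control replicate 3.

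Of 46 immediate early genes, which growth factors switch on within minutes, and MAPK feedback genes 2 rose and 13 fell (median -0.30). The share called was 32.6%, against 13.5% of all genes. KLF4 and KLF10, zinc finger factors, went from 8.94 and 8.92 to 7.11 and 7.12 and from 10.01 and 9.96 to 8.14 and 8.44 (-1.81, SE 0.23, adjusted p = 0.00292 for KLF4 and -1.70 for KLF10). EREG, a ligand of the EGF receptor, went from 5.37 and 5.51 to 3.76 and 3.81 (-1.66, SE 0.33, adjusted p = 0.0147) while the receptor EGFR rose by 0.95. MAFF, a small MAF factor, fell by 0.99. EGR1 was at 8.97 and 9.11 in controls against 8.30 and 8.06 after knockdown and the phosphatase DUSP1 at 9.74 and 9.84 in controls against 9.09 and 8.73 after knockdown, and neither passed (adjusted p = 0.293 and 0.0605). Of 42 p53 targets, cell cycle inhibitors and apoptosis genes 3 rose and 15 fell (42.9% called, median -0.17). PMAIP1, the proapoptotic protein NOXA, was at 6.57 and 6.70 in controls against 4.24 and 5.22 after knockdown (-1.91, SE 0.32, adjusted p = 0.00846) and TNFRSF10B, the TRAIL receptor DR5, at 9.70 and 9.63 in controls against 8.38 and 8.37 after knockdown (-1.29, SE 0.11, adjusted p = 0.000822), so the receptor fell where the ligand TNFSF10 rose. GADD45B fell by 0.75 but was at 0.000575 without the probe sets prone to cross-hybridise. CDKN1A, the inhibitor p21, rose by 1.04 and MDM2, the ligase of p53, fell by 0.40. PMAIP1 (-1.97 to -1.84) missed the threshold without either control array. EGFR (0.57 to 0.97) and EREG (-1.73 to -1.58) did not pass without either control array or knockdown replicate 1. GADD45B (-0.84 to -0.67) lost the call without either control array or either knockdown array. MDM2 (-0.47 to -0.30) was not called without either control array, knockdown replicate 1 or either Hep-3B control array. MAFF (-1.15 to -0.84) missed the threshold without either control array, either knockdown array or either Hep-3B control array. The immediate early counts became 0 higher and 2 lower without either control array, 0 higher without knockdown replicate 1 and 8 lower without knockdown replicate 3. The p53 and apoptosis counts became 3 lower without control replicate 1 and 4 lower without control replicate 3.

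Of 45 NF-kB targets, chemokines and cytokines 6 rose and 12 fell (40% called against 13.5% of all genes, median -0.12). CXCL3, which draws neutrophils, was at 9.43 and 9.28 in controls against 8.16 and 7.22 after knockdown (-1.66, SE 0.31, adjusted p = 0.0119) and CXCL10, which draws T cells, at 5.23 and 5.39 in controls against 4.22 and 4.15 after knockdown (-1.12, SE 0.20, adjusted p = 0.0102). CX3CL1, a membrane-bound chemokine, went the other way, at 6.68 and 6.85 in controls against 8.14 and 7.42 after knockdown (1.01, SE 0.21, adjusted p = 0.017), and IL32 rose by 0.92. CXCL8 was at 9.84 and 9.85 in controls against 8.78 and 8.54 after knockdown and did not pass (-1.18, SE 0.37, adjusted p = 0.0678). Of 53 interferon-stimulated and antigen presentation genes 6 rose and 4 fell (18.9% called against 13.5% of all genes, median 0.088). IFITM2 and IFITM3, antiviral membrane proteins, went from 8.90 and 8.97 to 9.58 and 9.92 and from 9.62 and 9.78 to 10.33 and 10.57 (0.81, SE 0.12, adjusted p = 0.00492 for IFITM2 and 0.75 for IFITM3), and their near-identical sequences leave the sharing of signal between them uncertain. OAS1, a sensor of double-stranded RNA, rose by 0.75 and HERC5, a ligase of ISG15, fell by 0.64. GBP3, a guanylate-binding protein, went from 3.74 and 3.07 to 4.93 and 5.25 (1.69, SE 0.23, adjusted p = 0.00401). CX3CL1 (0.93 to 1.10), CXCL10 (-1.21 to -1.04) and CXCL3 (-1.74 to -1.59) did not pass without either control array. IL32 (0.60 to 1.02) and OAS1 (0.54 to 0.88) lost the call without either control array or knockdown replicate 1. HERC5 (-0.71 to -0.41) was not called without control replicate 3, either knockdown array or either Hep-3B control array. The NF-kB counts became 0 higher and 3 lower without control replicate 1, 0 higher and 2 lower without control replicate 3 and 2 higher without knockdown replicate 1. The interferon counts became 2 higher and 1 lower without control replicate 1 or knockdown replicate 1, 2 higher and 0 lower without control replicate 3 and 10 higher and 2 lower without knockdown replicate 3.

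The 2 cadherins that mark the epithelial and the mesenchymal state both rose, as did vimentin. CDH1, the epithelial E-cadherin, was at 8.69 and 8.73 in controls against 9.87 and 9.57 after knockdown (1.01, SE 0.12, adjusted p = 0.00284, 2.01-fold), and its knockdown arrays lay above both controls. VIM, the mesenchymal filament protein vimentin, was at 9.0 and 8.94 in controls against 10.69 and 10.40 after knockdown (1.58, SE 0.16, adjusted p = 0.00165, 2.98-fold) and CDH2, N-cadherin, at 5.80 and 6.0 in controls against 6.64 and 6.56 after knockdown (0.71, SE 0.14, adjusted p = 0.015). Of the EMT transcription factors, ZEB1 was at 7.13 and 7.40 in controls against 5.95 and 6.67 after knockdown (-0.96, SE 0.21, adjusted p = 0.0196). SNAI1 was at 5.53 and 5.40 in controls against 5.76 and 5.34 after knockdown, with overlapping groups, and SNAI2 at 2.65 and 2.51 in controls against 2.37 and 2.24 after knockdown. ZEB2 and TWIST1 were dim, at 2.73 to 2.85 and 2.16 to 2.20, with differences of -0.018 and -0.018, whose sign turned when arrays were centred on ribosomal protein genes (0.030 for each). FN1, fibronectin, was at 12.87 and 12.88 in controls against 12.97 and 12.97 after knockdown (0.091, SE 0.085, adjusted p = 0.565). CDH2 (0.61 to 0.80) and ZEB1 (-1.09 to -0.60) missed the threshold without either control array or knockdown replicate 1.

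Of 50 epithelial junction and keratin genes 13 rose and 4 fell (34% called against 13.5% of all genes, median 0.034). KRT19, a keratin of bile ducts, was at 8.02 and 8.26 in controls against 9.67 and 9.26 after knockdown (1.32, SE 0.15, adjusted p = 0.00212), SPINT1, an inhibitor of surface proteases, at 6.0 and 5.85 in controls against 7.37 and 7.10 after knockdown (1.31, SE 0.13, adjusted p = 0.00125) and PROM1, a membrane protein of progenitor cells, at 4.07 and 3.96 in controls against 4.75 and 5.54 after knockdown (1.13, SE 0.22, adjusted p = 0.0131). JUP, the junction protein plakoglobin, rose by 0.70 and EPCAM, an epithelial adhesion protein, by 0.36. CLDN1, of tight junctions, fell by 0.75 and TJP1, the scaffold ZO-1, by 0.58. KRT19, PROM1, SPP1 and EPCAM are also the 4 cholangiocyte and progenitor markers that rose, while SOX9, the factor of bile duct cells, went from 11.52 and 11.52 to 11.08 and 10.84 (-0.56, SE 0.12, adjusted p = 0.0208). Of 47 mesenchymal genes and EMT factors 4 rose and 2 fell (median 0.025), a share of 12.8% called, near that of all genes. TAGLN, the actin-binding protein transgelin, was at 7.34 and 7.66 in controls against 9.47 and 9.16 after knockdown (1.81, SE 0.24, adjusted p = 0.00368), but at 0.090 and not called without the probe sets prone to cross-hybridise. LOX, which crosslinks collagen, went from 10.36 and 10.33 to 8.72 and 9.67 (-1.15, SE 0.31, adjusted p = 0.0414). TJP1 (-0.53) did not pass without control replicate 3. JUP (0.54 to 0.55) lost the call without control replicate 1 or knockdown replicate 1. PROM1 (1.07 to 1.18) was not called without either control array. SOX9 (-0.56 to -0.44) missed the threshold without either control array or knockdown replicate 3. EPCAM (0.31 to 0.39) and LOX (-1.16 to -0.67) did not pass without either control array, knockdown replicate 1 or either Hep-3B control array. The epithelial counts became 6 higher without control replicate 1 and 5 higher and 1 lower without control replicate 3. The mesenchymal counts became 2 higher and 0 lower without either control array, 0 lower without knockdown replicate 1 and 8 higher without knockdown replicate 3.

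Of 65 actin, contractile and focal adhesion genes 25 rose and 5 fell (median 0.25 in Huh7 and 0.019 in Hep-3B). The share called was 46.2%, against 13.5% of all genes. TMSB4X, thymosin beta 4, which holds actin monomers, was at 10.48 and 10.38 in controls against 11.51 and 11.52 after knockdown (1.09, SE 0.094, adjusted p = 0.000822). ACTN4, an actin crosslinker, rose by 0.89, RHOC, a small GTPase of cell movement, by 0.88 and MYL9, a myosin light chain, by 0.95, the last at -0.15 and not called without the probe sets prone to cross-hybridise. RND3, which opposes RhoA signalling, went from 7.63 and 7.87 to 6.64 and 6.49 (-1.18, SE 0.13, adjusted p = 0.00199) and FERMT2, kindlin-2, which activates integrins, from 10.23 and 10.18 to 9.05 and 9.06 (-1.15, SE 0.086, adjusted p = 0.000503). In 21 of the 25 rises knockdown replicate 1 was the higher array, as it was in 757 of all 1137 genes called higher. The ACTB 3' minus 5' difference was lower in both knockdown arrays, while that of GAPDH overlapped between the groups, and the part of these values here was not tested. Of 59 matrix, integrin and matrix protease genes 10 rose and 3 fell (22% called, median 0.085). Beside MMP7 and SPP1, TIMP2, a protease inhibitor, went from 7.60 and 7.83 to 9.07 and 8.76 (1.2, SE 0.15, adjusted p = 0.00277), while ITGA2, an integrin that binds collagen, went from 8.79 and 8.76 to 7.56 and 7.62 (-1.18, SE 0.13, adjusted p = 0.00186). Of 14 S100 proteins 4 rose and 1 fell, and of 11 annexins 2 rose and 0 fell. The 25 together had a median of 0.18, with 28% called. S100A6 went from 10.32 and 10.33 to 11.87 and 11.31 (1.26, SE 0.16, adjusted p = 0.00357), S100A14 from 4.81 and 5.16 to 5.83 and 5.94, and ANXA4, a calcium-dependent membrane-binding protein, from 9.77 and 9.72 to 10.86 and 10.73 (1.05, SE 0.09, adjusted p = 0.000813), while S100P fell by 0.85. RHOC (0.86 to 0.90) and S100P (-0.85) lost the call without either control array. The actin counts became 8 higher and 3 lower without control replicate 1, 9 higher and 3 lower without control replicate 3 and 12 higher without knockdown replicate 1. The matrix counts became 3 higher without control replicate 1, 5 higher and 1 lower without control replicate 3 and 6 higher without knockdown replicate 1. The S100 and annexin counts became 3 higher and 0 lower without either control array and 10 higher without knockdown replicate 3.

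**Figure D3:**
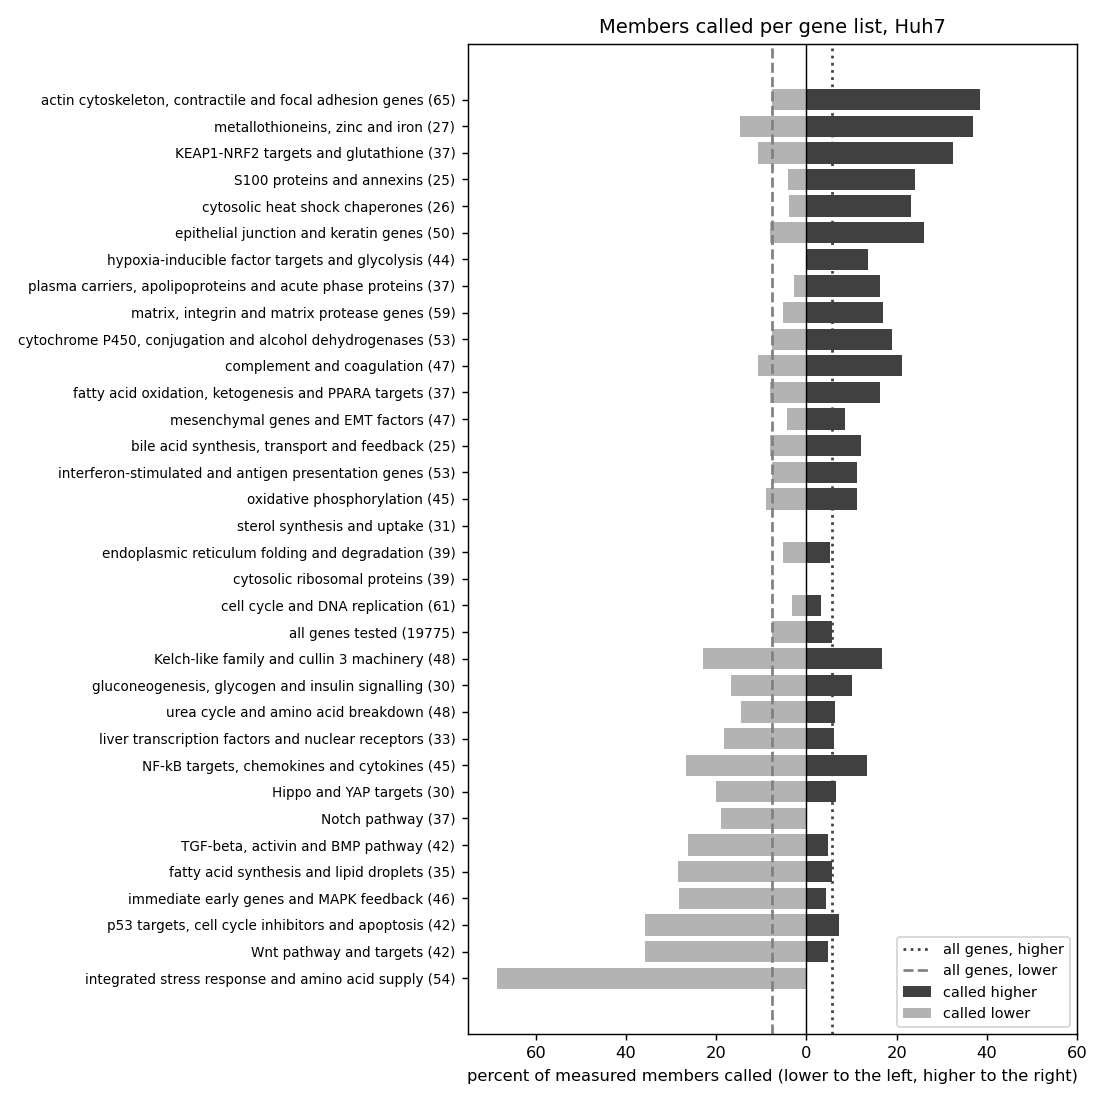
Percent of measured members (number in brackets) called lower, to the left in light grey, and higher, to the right in dark grey, for 33 gene lists and for all genes tested. The dashed and dotted lines mark 7.73% lower and 5.75% higher over all 19775 genes; 37 of 54 stress response genes lie to the left and 25 of 65 actin genes to the right.

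Other members of KLHL23's own family moved too. Of 48 Kelch-like family and cullin 3 genes 8 rose and 11 fell (39.6% called against 13.5% of all genes, median -0.0063). KLHL5 was at 9.47 and 9.37 in controls against 7.93 and 7.83 after knockdown (-1.54, SE 0.11, adjusted p = 0.000453), KBTBD6, which recruits targets to cullin 3, at 8.09 and 8.16 in controls against 6.69 and 6.91 after knockdown (-1.33, SE 0.10, adjusted p = 0.000503), KLHL2, an actin-binding member, at 7.69 and 7.73 in controls against 6.46 and 6.89 after knockdown (-1.04, SE 0.13, adjusted p = 0.00345) and KLHL28 at 5.89 and 6.22 in controls against 4.80 and 5.38 after knockdown. KLHL5 and KBTBD6 fell to 34.4% and 39.8% of control. The ligase parts rose: CUL3, the scaffold, by 0.45 and RBX1, its RING subunit, by 0.74. KLHL28 (-0.80) was not called without control replicate 3. CUL3 (0.42 to 0.49) missed the threshold without either control array. The Kelch-like counts became 2 higher and 5 lower without control replicate 1, 1 higher and 4 lower without control replicate 3 and 3 higher and 6 lower without knockdown replicate 1.

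Of 61 cell cycle and DNA replication genes 2 rose and 2 fell (6.56% called against 13.5% of all genes), but the 2 knockdown arrays disagreed. The list's median was -0.30 in replicate 1 and 0.075 in replicate 3. Without replicate 3, 23 members were called lower. CDK6, a kinase of the G1 phase, went from 9.59 and 9.60 to 8.67 and 9.18 (-0.67, SE 0.15, adjusted p = 0.0217), CDT1, which licenses replication origins, fell by 0.44, PCNA, the replication clamp, rose by 0.37 and KIF20A, a kinesin of cell division, by 0.50. Of 26 heat shock chaperones and their partners, cytosolic and mitochondrial, 6 rose and 1 fell (26.9% called, median 0.13). HSPA2, an HSP70 protein, went from 3.61 and 3.90 to 5.52 and 4.68 (1.34, SE 0.23, adjusted p = 0.00894) and HSPE1, the mitochondrial cochaperonin HSP10, from 11 and 10.96 to 11.68 and 11.75 (0.74, SE 0.099, adjusted p = 0.00389). Of 45 oxidative phosphorylation genes 5 rose and 4 fell (20% called against 13.5% of all genes, median 0.052). PPARGC1B, a coactivator of mitochondrial genes, went from 6.66 and 6.52 to 5.60 and 5.61 (-0.99, SE 0.096, adjusted p = 0.00123) and NDUFB3, a subunit of complex I, from 9.72 and 9.74 to 10.53 and 10.46 (0.77, SE 0.095, adjusted p = 0.00284). Of 39 cytosolic ribosomal protein genes limma called 0 higher and 0 lower, against 1 and 0 at an unadjusted p under 0.05 and 2 and 3 with an intensity trend and robust eBayes, with differences from -0.18 to 0.27. HSPA2 (1.2) did not pass without control replicate 1. CDK6 (-0.68 to -0.42) and CDT1 (-0.48 to -0.40) lost the call without either control array or knockdown replicate 1. KIF20A (0.36 to 0.52) and PCNA (0.30 to 0.40) were not called without either control array, knockdown replicate 3 or either Hep-3B control array. The cell cycle counts became 0 higher and 0 lower without either control array, 6 higher and 1 lower without knockdown replicate 1 and 0 higher and 23 lower without knockdown replicate 3. The heat shock counts became 2 higher and 0 lower without control replicate 1, 0 lower without control replicate 3 and 2 lower without knockdown replicate 3. The oxidative phosphorylation counts became 1 higher and 1 lower without control replicate 1 and 1 higher and 2 lower without control replicate 3.

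**Figure D4:**
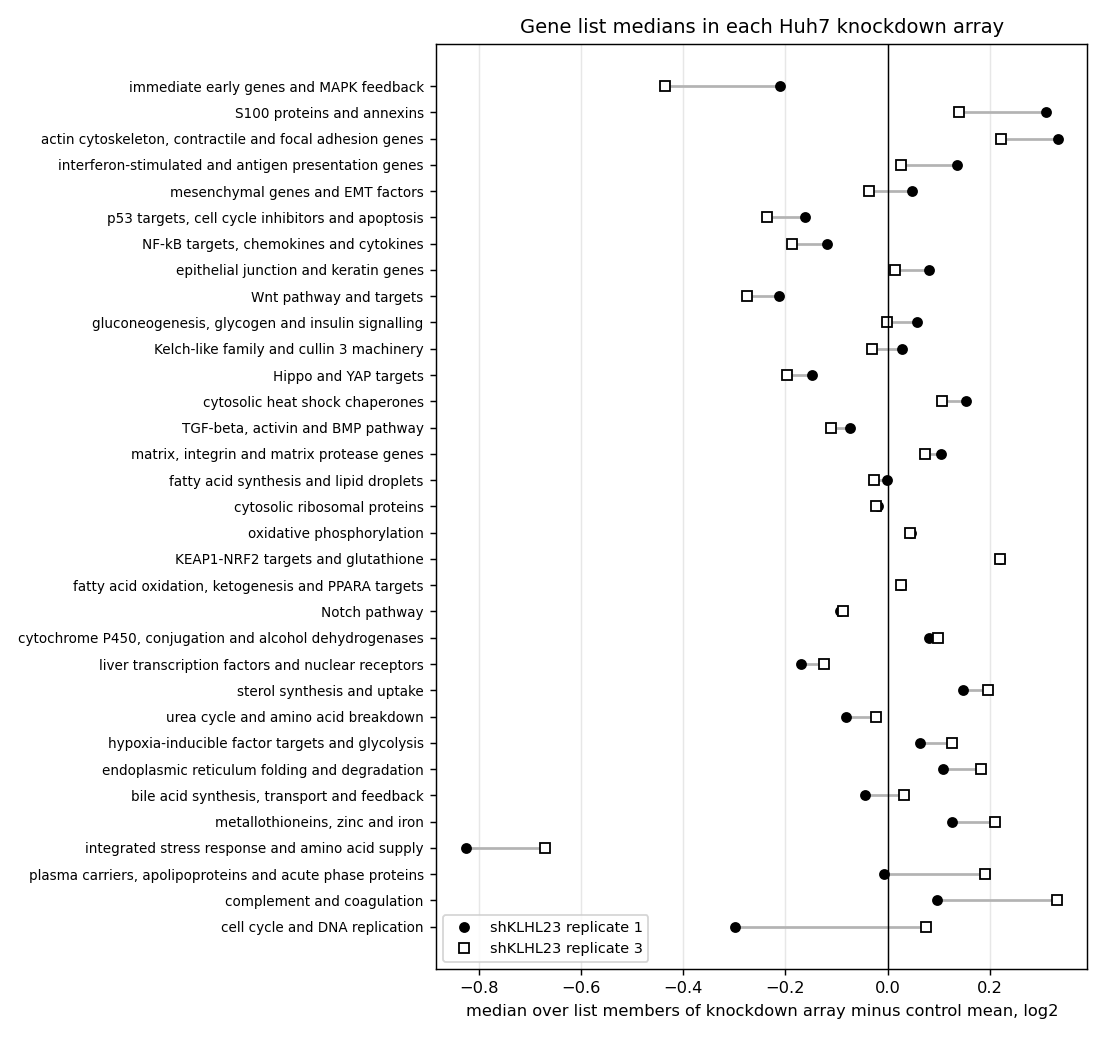
Median over the members of each of 33 gene lists of a knockdown array minus the mean of the control arrays (x axis, log2), filled circles for knockdown replicate 1 and open squares for replicate 3. The cell cycle list lies at -0.30 in replicate 1 and 0.075 in replicate 3, and the stress response list lies left of all others in both arrays.

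After DDIT4, the 2 knockdown arrays differed most in GSTA1, a glutathione transferase, at 5.58 and 5.65 in controls against 5.38 and 7.24 after knockdown, and SULT1E1, the estrogen sulfotransferase, at 8.41 and 8.25 in controls against 6.68 and 8.39 after knockdown. CP, the copper carrier ceruloplasmin, was at 7.96 and 7.97 in controls against 7.78 and 9.27 after knockdown and HAL, the histidine-degrading enzyme, at 5.11 and 5.34 in controls against 4.67 and 5.96 after knockdown. In GSTA1, SULT1E1 and CP a single knockdown array stood away from the controls, in HAL the 2 arrays stood on opposite sides of them, and limma called none of the 4 (adjusted p = 0.403, 0.315, 0.553 and 0.902). Of the 62 genes whose knockdown arrays differed by over 1, 9 were called.

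The knockdown was repeated in Hep-3B, where KLHL23 went from 7.81 and 7.84 to 7.21 and 6.15 and did not pass (-1.14, adjusted p = 0.0833). Its fall there was smaller than in Huh7 (-2.05) and uneven between the knockdown arrays. For KLHL23 the difference between the lines was -0.91 and did not pass (adjusted p = 0.316). In other genes, an effect of the line and of the unlike depth of knockdown cannot be told apart. The difference between the lines was tested by subtracting the Hep-3B difference from that in Huh7, with separate control arrays in each line, and 249 genes were called, 1.26% of all genes tested. Of these, 218 were also called in Huh7, 83 higher and 135 lower, and 142 of the 218 had the opposite sign in Hep-3B. Opposite signs are favoured by the choice of genes called for the difference. The other 2448 genes called in Huh7 were not called in this test. Of the 2666 genes called in Huh7, 2128 had the same sign in Hep-3B. The share of all genes with the same sign in both lines is not given here, so 2128 has no baseline. In Hep-3B 137 genes were called (0.693% of all genes). Of these 56 were also called in Huh7, where 13.5% of all genes were, and 48 of the 56 went in the same direction. The count for the difference was 4 and 7 without Huh7 control replicate 1 and 3, 130 and 521 without Huh7 knockdown replicate 1 and 3, and 12 and 30 without Hep-3B control replicate 1 and 3. It was 262 and 65 without Hep-3B knockdown replicate 1 and 3.

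NR0B2 went in Hep-3B from 10.80 and 10.77 to 10.58 and 10.45 (difference between lines 2.25, SE 0.16, adjusted p = 0.00312), so the lines differed, as they did for CPT1A (difference between lines 2.49, SE 0.15, adjusted p = 0.00155) and C6 (difference between lines 2.57, SE 0.20, adjusted p = 0.00377). These 3 differences passed without any single array of the 8. CPT1A went in Hep-3B from 8.95 and 8.83 to 9.17 and 9.41 and C6 from 4.81 and 4.71 to 5.15 and 4.91. For NR0B2 and CPT1A the Hep-3B controls already lay above the Huh7 knockdown arrays (8.21 and 7.92, and 8.25 and 8.32). For C6 they lay below them (7.58 and 7.96). The part of these starting levels in the differences was not tested. ADH4, which fell in Huh7, went in Hep-3B from 6.81 and 6.66 to 8.38 and 8.95 (difference between lines -3.31, SE 0.32, adjusted p = 0.00837), and PCK1 from 4.40 and 4.41 to 4.22 and 4.05 (difference between lines 1.51, SE 0.15, adjusted p = 0.00837). FERMT2 and KBTBD6 were at -0.086 and -0.043 in Hep-3B, with adjusted p = 0.0098 and 0.0096 for the difference. The difference for VIM was 1.43 (adjusted p = 0.0356) and that for CDH1 0.62 (adjusted p = 0.148). For PCK1, FERMT2, KBTBD6, VIM and CDH1 the difference between the lines was not refitted without single arrays. The metallothioneins MT1E and MT1X were at 1.65 and 1.67 in Hep-3B, also called there, and did not pass the test of the difference (adjusted p = 0.878 and 0.992).

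**Figure D5:**
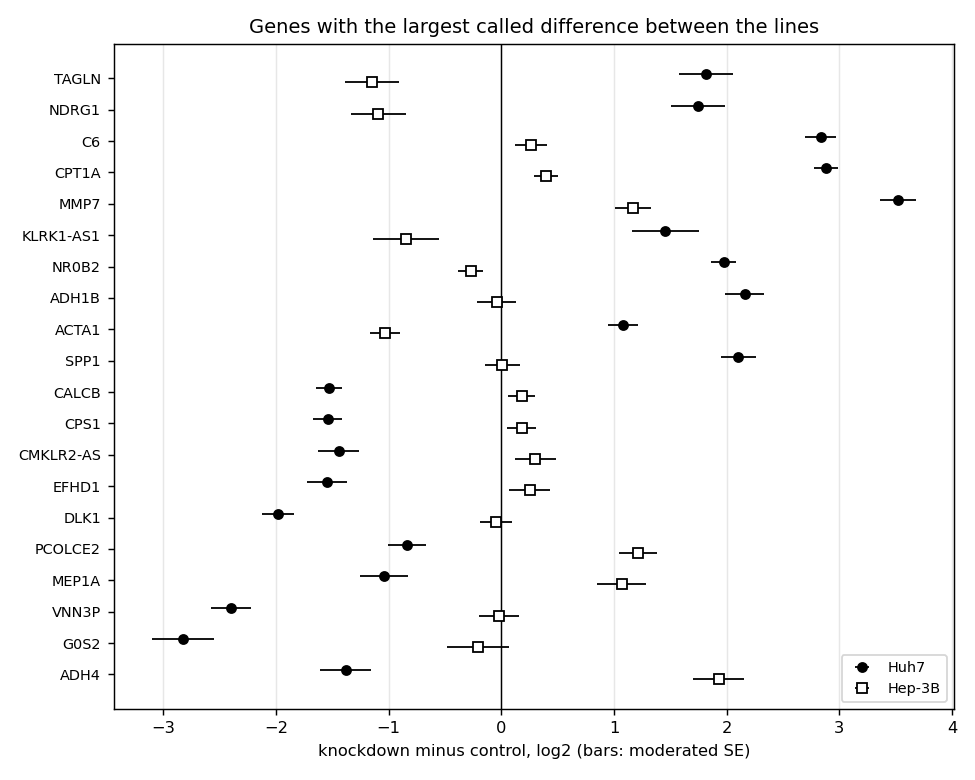
Knockdown minus control (x axis, log2) in Huh7, filled circles, and Hep-3B, open squares, with bars for the moderated SE, for the 10 rises and 10 falls in Huh7 with the largest called difference between the lines. ADH4 lies at -1.38 in Huh7 and 1.93 in Hep-3B, and TAGLN at 1.81 and -1.15.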

How the data were processed

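Expression was measured on 8 Affymetrix arrays, 2 for each of 4 groups, of which the 4 Huh7 arrays are described. The deposited values are log2 values that the authors made by RMA with Expression Console 1.2 of Affymetrix, according to the notes on processing deposited with them, and they range from 1.52 to 14.1. The reference build of the arrays is not given in the sources used here. Of 54675 probe sets 41097 pair with 1 gene symbol, 1801 with several and 11777 with none, by the platform's annotation. Each of 19775 genes was represented by its probe set with the highest mean. All 8 arrays were fitted with a mean per group in limma 3.58.1 (R 4.3.3), moderated by eBayes (residual df 4, prior df 4.59), with Benjamini-Hochberg adjustment over all genes and a threshold of 0.05. Adjusted p-values are limma's unless stated. Counts and named genes were refitted without each array and under the other settings given in the closing section. The estimated array weight was 1.33 for each Huh7 control array and 0.571 for each Huh7 knockdown array. Without a control array the estimate of spread therefore rests more on the more variable knockdown arrays.

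On simulated data with 19775 genes for the Huh7 comparison, 67, 67 and 66 genes were changed 1.5-fold, 2-fold and 4-fold. The fit recovered 34.3%, 79.1% and 98.5% of them, and 6 of 147 calls were unchanged genes. The noise was normal, with the same spread of a gene in every group. In the data 2666 genes were called, and 62 genes differed by over 1 between the knockdown arrays against 1 between the control arrays. The simulated shares need not hold for such data. The number of arrays limits the precision. The gene lists, the named genes and the members were chosen with earlier results of these data known. Lists share members, such as INHBE, CTH, CBS, CEBPB, CHAC1, SESN2 and GADD45B, so their counts are not separate observations. The named genes are the largest called changes, the largest called members of each list and genes picked after their values were seen (among them TRIB3, ASNS, PHGDH, MT2A, TJP1, VEGFA, KEAP1, AXIN2 and AFP). Genes whose probe sets pair with several symbols were not named. Promoter sequences came from RefSeq (GRCh38.p14) by gene symbol, and 15384 of the 19775 genes had one.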

Additional observations from a re-analysis of the deposited data

Results flagged for a closer look

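The following 20 genes were called in Huh7 and had the largest tested differences between the lines, 10 higher and 10 lower in Huh7. Each value subtracts the Hep-3B difference from that in Huh7 on the log2 scale, with the Huh7 and the Hep-3B difference in brackets, from limma's interaction test with Benjamini-Hochberg adjustment.

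Among the rises, TAGLN 2.96 (1.81 against -1.15, adjusted p = 0.0098), NDRG1 2.84 (1.75 against -1.09, adjusted p = 0.0116) and C6 2.57 (2.84 against 0.26, adjusted p = 0.00377) led. MMP7 and SPP1, secreted proteins, were at 2.35 (3.52 against 1.17, adjusted p = 0.00837) and 2.10 (2.10 against 0.0082, adjusted p = 0.00837). SPP1 was already at 12.12 and 12.14 in Hep-3B controls, against 11.59 and 12.12 in Huh7 after knockdown. CPT1A was at 2.49 (2.88 against 0.39, adjusted p = 0.00155) and NR0B2 at 2.25 (1.97 against -0.27, adjusted p = 0.00312). The others were KLRK1-AS1 2.30 (1.46 against -0.85, adjusted p = 0.0449), ADH1B 2.20 (2.16 against -0.041, adjusted p = 0.0098) and ACTA1 2.11 (1.08 against -1.04, adjusted p = 0.00837). Among the falls, ADH4 -3.31 (-1.38 against 1.93, adjusted p = 0.00837), G0S2 -2.62 (-2.83 against -0.21, adjusted p = 0.0278) and VNN3P -2.38 (-2.40 against -0.02, adjusted p = 0.00837) led. In Hep-3B controls G0S2 was dim, at 4.8 and 4.99, as was VNN3P, at 3.8 and 4. Huh7 controls held 9.48 and 9.48 of G0S2 and 7.89 and 7.76 of VNN3P. A fall as large as in Huh7 could therefore hardly be measured in Hep-3B for these genes. The next were MEP1A -2.11 (-1.04 against 1.07, adjusted p = 0.024), PCOLCE2 -2.06 (-0.84 against 1.22, adjusted p = 0.0101) and DLK1 -1.94 (-1.98 against -0.046, adjusted p = 0.00837). The last were EFHD1 -1.80 (-1.55 against 0.25, adjusted p = 0.0214), CMKLR2-AS -1.74 (-1.44 against 0.30, adjusted p = 0.0272), CPS1 -1.72 (-1.54 against 0.18, adjusted p = 0.00837) and CALCB -1.71 (-1.53 against 0.18, adjusted p = 0.00837). ADH1B, DLK1, TAGLN, NDRG1, SPP1, ADH4, G0S2 and PCOLCE2 rest on probe sets of a type prone to cross-hybridise. Without that type the difference between the lines was -0.18, -0.070 and 0.43 for ADH1B, DLK1 and TAGLN and did not pass, and the other 5 have no value there.

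Leaving out 1 array turned the sign of none of the 20 and moved a value by at most 0.539. Of the 20, 17 and 16 did not pass without Huh7 control replicate 1 and 3, and 12 and 6 without Hep-3B control replicate 1 and 3. Without Hep-3B knockdown replicate 1 and 3, 2 and 4 did not pass, without Huh7 knockdown replicate 1 2, and without Huh7 knockdown replicate 3 0. The highest adjusted p was 0.18, without Huh7 control replicate 1. C6, CPT1A and NR0B2 passed in each of the 8.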

How the results depend on the processing

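KLHL23 was called under each alternative run, with adjusted p-values from 0.000281 to 0.0372. The 2666 genes changed in Huh7 became 4643 over all probe sets, 1578 with Huh7 arrays alone and 266 with a 2-fold minimum, and 545 to 3032 when 1 array was left out. Leaving out a Hep-3B array, an alternative chosen after seeing the data, gave 1834 to 2744. The 249 genes that differed between the lines became 510 over all probe sets and 560 with an intensity trend and robust eBayes, and 4 to 521 when 1 array was left out. The labels do not say whether replicate numbers pair the samples. The deviations of control and knockdown arrays of the same number correlated at 0.0617 in Huh7 and -0.0704 in Hep-3B. No shared deviation was seen, which cannot settle whether the arrays were paired. With the number as a replicate block the counts were 2271 in Huh7 (2213 shared with the unblocked calls) and 143 for the difference between the lines. KLHL23 was then at -2.05 (adjusted p = 0.00461). Under median centring 1031 of 2597 calls were higher. The ribosomal centring used the 39 ribosomal protein genes measured, fewer than the 49 planned.

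The sign turned with ribosomal centring for TWIST1 (0.030) and ZEB2 (0.030), and with the mean of probe sets for SEC61B (-0.056). Without the _x_at and _s_at probe sets it turned for ADH1B (-0.14, and -0.18 for its difference between lines), DLK1 (0.14), GADD45B (0.000575), HERPUD1 (0.29), MYL9 (-0.15) and RPS9 (0.019). These types of probe set can bind related transcripts, and the cause was not tested. Leaving out 1 array turned the sign of genes that were not called, with ranges of AFP -0.98 to 0.015, CP -0.18 to 1.30, GSTA1 -0.23 to 1.62, HAL -0.55 to 0.73, PGAP1 -1.08 to 0.21, SNAI1 -0.12 to 0.29, SULT1E1 -1.65 to 0.058, TWIST1 -0.039 to 0.0027 and ZEB2 -0.077 to 0.041. Signal over background limits dim genes, whose changes RMA shrinks.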

Other observations

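Probe sets that name no single gene also changed. Of 11721 probe sets without a gene symbol, 261 were higher and 225 lower in the knockdown at an adjusted p under 0.05 over all probe sets, and of 1801 paired with several symbols 104 and 92. Over all probe sets 2092 were higher and 2551 lower.

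Among 1671 called genes with at least 2 probe sets, 692 had another probe set called the same way and 18 had 1 called each way. In ARMC8, of an E3 ubiquitin ligase complex, 203486_s_at went from 6.76 and 6.75 to 7.43 and 7.40 (adjusted p = 0.00754 over all probe sets) while 219094_at went from 6.29 and 6.37 to 4.45 and 5.04 (adjusted p = 0.00226). In ANKRD13C, 227375_at went from 4.92 and 4.89 to 5.57 and 5.60 while 1556361_s_at went from 5.71 and 5.90 to 4.45 and 4.11. In NASP, a histone chaperone, 242918_at went from 4.32 and 4.61 to 5.85 and 5.82 while 201969_at went from 8.05 and 8.04 to 7.41 and 7.64. In ASPH, an aspartate hydroxylase of the endoplasmic reticulum, 242037_at went from 4.73 and 4.81 to 6.21 and 5.63 while 209135_at went from 8.82 and 8.78 to 7.80 and 7.92. Without either control array 203486_s_at of ARMC8 (0.66 in both), 242037_at of ASPH (1.11 and 1.19), 227375_at of ANKRD13C (0.70 and 0.67) and 201969_at of NASP (-0.52 and -0.53) did not pass, and the last 2 did not without knockdown replicate 1 (0.70 and -0.41). Which transcripts these probe sets bind was not tested. These genes were picked from those whose probe sets lay furthest apart, which also held CBX5 and CIRBP.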
